A study of Mus musculus with 26 samples.

Results

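The NF-kB transcription factors, their inhibitors and the adaptor Traf1 were followed in 3 myeloid cell types of WT and ACKR2-/- mice. The set held 10 genes, taken by name. These were the subunit genes Nfkb1, Nfkb2, Rel, Rela and Relb, the inhibitor genes Nfkbia, Nfkbib and Nfkbie, and Tnfaip3 and Traf1. The 10 genes were among 54375 genes counted in monocytes, 54863 in small peritoneal macrophages (SPMs) and 57186 in lung macrophages. All 10 passed the filter on low counts in every cell type. On GRCm38, Traf1 spans 34941750 to 34961772 of chromosome 2, Nfkbia 55489410 to 55492647 of chromosome 12, Rel 23736847 to 23770970 of chromosome 11 and Tnfaip3 19000910 to 19015657 of chromosome 10, all on the minus strand, and values are reads assigned to a gene as a whole.

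ACKR2 is an atypical chemokine receptor that takes up inflammatory CC chemokines without signalling through G proteins, and ACKR2-/- mice lack it in every cell. Bone marrow monocytes (4 WT and 4 ACKR2-/- samples), SPMs from peritoneal lavage (4 and 4) and MHCII negative macrophages from enzyme-digested lungs (5 and 5) were FACS sorted from naïve female mice. Each monocyte or SPM sample held cells of 5 mice, whereas no source used here gives the number of mice behind a lung sample, so p-values there measure only the spread between samples. WT C57BL/6J mice were bought and ACKR2-/- mice were bred as a homozygous colony, age and sex matched but not littermates, so colony and genotype cannot be told apart. None of the mice was infected or otherwise treated. The mice were 8 to 10 weeks old unless stated otherwise in the methods, and the sample labels give no age.

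NF-kB works as pairs of subunits. In resting cells IkB proteins, such as IkBα from Nfkbia, hold these pairs in the cytoplasm until the IKK kinases mark the IkB protein for destruction, and the freed pairs then enter the nucleus and switch on genes that include Nfkbia, Nfkbie, Nfkb2, Relb, Rel, Tnfaip3 and Traf1 themselves. The feedback makes the transcripts of the inhibitors and of A20, the ubiquitin-editing enzyme made from Tnfaip3, common readouts of the pathway in macrophages. Activity itself depends on protein that moves between compartments, which RNA counts do not measure.

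Promoters were read from RefSeq on GRCm38.p6 to show the letters around the start sites of these genes. Of the 10 genes, 8 had an entry (all but Nfkb1 and Relb), with 11 promoters in all. The NF-kB consensus, a pattern of 10 letters searched on both strands from 250 bases before to 50 after the start site, was found in 7 of these 11, in Nfkb2, Rel, Nfkbia, Nfkbie and Tnfaip3. It was found in 8.46% of 32851 promoters of the same length. No match lay in the windows of Rela, Nfkbib and Traf1, which says only that these letters are not there. The 150 bases before the start site are shown for 3 feedback genes and for Traf1, the gene that differed most between cell types, on the strand of the gene and with each match in capitals.
Nfkbia, chr12:55492648-55492797, minus strand: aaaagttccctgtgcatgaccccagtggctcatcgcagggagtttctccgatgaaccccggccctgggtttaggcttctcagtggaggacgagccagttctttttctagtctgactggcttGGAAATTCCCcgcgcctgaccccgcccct
Tnfaip3, chr10:19015411-19015560, minus strand: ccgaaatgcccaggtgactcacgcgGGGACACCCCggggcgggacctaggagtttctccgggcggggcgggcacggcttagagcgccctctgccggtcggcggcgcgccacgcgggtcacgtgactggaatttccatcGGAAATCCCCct
Rel, chr11:23770970-23771119, minus strand: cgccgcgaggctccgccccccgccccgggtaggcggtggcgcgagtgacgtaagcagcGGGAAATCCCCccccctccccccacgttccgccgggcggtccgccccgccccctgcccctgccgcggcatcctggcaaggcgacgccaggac
Traf1, chr2:34961773-34961922, minus strand: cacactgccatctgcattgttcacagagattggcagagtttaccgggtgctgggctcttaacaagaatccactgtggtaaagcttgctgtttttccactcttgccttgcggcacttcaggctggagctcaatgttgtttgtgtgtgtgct
The Nfkbia match ended 20 bases before the start site, and its exact letters were held by 29 of the 32851 promoters. Tnfaip3, shown by the first of its 2 promoters, had matches that began 125 and 12 bases before the start site, and the 2 matches in Rel overlapped by all but 1 base. A match is a stretch of letters and not a measured binding site.

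Between 12781144 and 35400034 reads per library were counted on genes, and values are given as CPM, read counts scaled to library size. Intervals of counting alone do not cover copies made by PCR. Ackr2, the targeted gene, had 2 reads over all WT monocyte libraries and 29 over the WT SPM libraries, with 0 in the ACKR2-/- libraries of both. In lung macrophages it ran from 0 to 22.1 CPM in WT and from 0.282 to 1.64 CPM in ACKR2-/-, and the library labelled WT replicate 5 was the one with 0 reads, which allows up to 0.145 CPM. The defining transcripts were present in monocytes (Ly6c2 at 3271 CPM or more, Ccr2 at 414 or more) and in SPMs (H2-Ab1 at 24425 or more, Retnla at 19024 or more). In lung macrophages Csf1r was at 913 CPM or more, Adgre1 at 280 to 653, C1qb at 88.9 to 5076, Cx3cr1 at 76.4 to 267, Folr2 at 4.73 to 118 and Mertk at 0.885 to 18.1 CPM. There, H2-Ab1 reached 21242 CPM in WT replicate 3 despite the MHCII negative gate. In the same lung libraries the summed CPM of 6 epithelial genes ran from 252 to 18893, with the library labelled WT replicate 5 and ACKR2-/- replicate 4 lowest.

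First, it was asked where these genes are expressed in WT mice. Levels are on a scale shared by all 26 libraries, and the cell types were compared in an edgeR quasi-likelihood fit over 17792 genes, with calls made where the adjusted p was below 0.05 and the log2 difference beyond 0.5 either way. All 10 genes were higher in lung macrophages than in monocytes, and all 10 were higher there than in SPMs. The background was high: 39.5% of all genes were called higher in lung macrophages than in monocytes (63.8% in either direction) and 39.1% higher than in SPMs (62.3%). The median of the 10 genes was 2.81 above monocytes on the log2 scale, where the median of all genes was 0.34, and 2.56 above SPMs, where it was 0.41. Cell type, count table and enzyme digestion of the lung moved together, so their parts in these differences cannot be told apart.

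**Figure D1:**
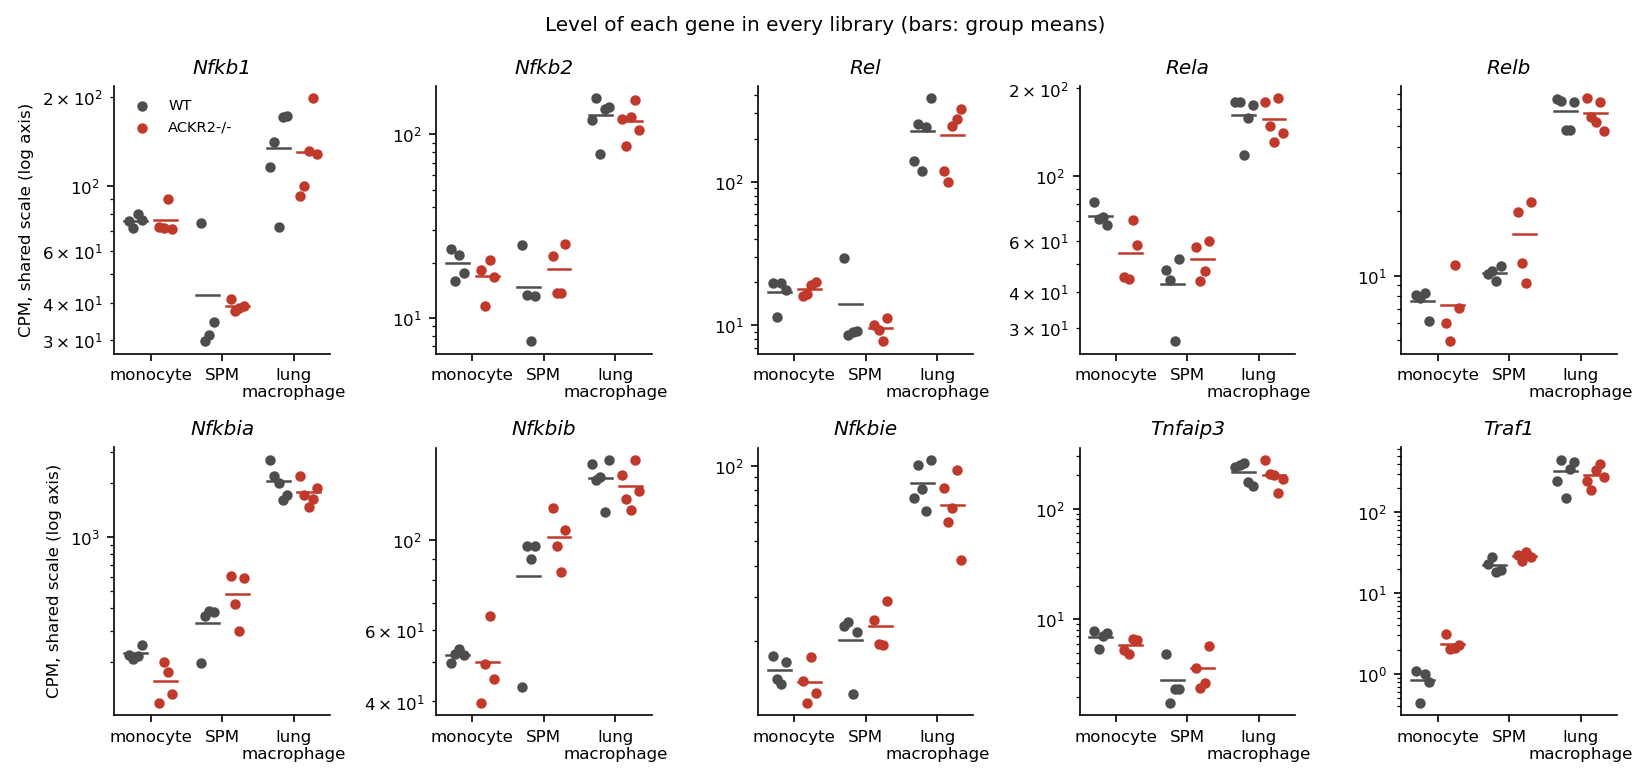
CPM on the shared scale (log axis) of each of the 10 genes in all 26 libraries, by cell type and genotype (grey, WT; red, ACKR2-/-; short bars, group means). The lung range meets that of another cell type for Nfkb1, where WT lung replicate 3 falls to 72.3 CPM, and for Nfkbib. For Nfkbib an SPM library reaches 119.9 CPM and the lowest lung library has 117.7 CPM. For the other genes the lung libraries sit above all others, and how many of all genes do so was not counted.

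Traf1, an adaptor of the TNF receptor family, had the widest range. The WT monocyte libraries 1 to 4 held 1.10, 0.441, 0.998 and 0.797 CPM of Traf1, which were 22, 9, 23 and 18 reads. The WT SPM libraries held 22.8, 28.3, 18.2 and 19.3 CPM, and the WT lung libraries 246, 447, 150, 342 and 417 CPM. The groups did not overlap, with monocytes lowest and lung macrophages highest. The log2 difference was 4.72 ± 0.342 (SE) from monocytes to SPMs (adjusted p = 4.26e-11, edgeR) and 8.57 ± 0.389 from monocytes to lung macrophages (adjusted p = 5.22e-15, edgeR).

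Tnfaip3 followed another order. A20, its product, trims the ubiquitin chains that activate IKK. It was at 7.80, 5.44, 7.07 and 7.49 CPM in WT monocytes, at 4.86, 1.76, 2.33 and 2.33 CPM in WT SPMs, and at 237, 247, 257, 175 and 161 CPM in WT lung macrophages. SPMs were lowest in each library, and their values rest on 15 to 63 reads. Tnfaip3 was 1.28 ± 0.296 (SE) lower on the log2 scale in SPMs than in monocytes and 6.23 ± 0.338 higher in lung macrophages than in SPMs (adjusted p = 9.44e-04 and 1.99e-13, edgeR).

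Nfkbia, the main fast inhibitor, was the most abundant of the 10 genes in each cell type. Its WT levels were 219, 208, 217 and 248 CPM in monocytes, 198, 362, 386 and 383 CPM in SPMs, and 2713, 2192, 2021, 1623 and 1720 CPM in lung macrophages. The lung libraries stood clear of the rest, and WT SPM replicate 1 lay below all 4 monocyte libraries. The log2 difference from monocytes to lung macrophages was 3.20 ± 0.259 (SE), with an adjusted p of 1.18e-10 in edgeR. The other IkB genes differed by less over the same contrast, Nfkbib by 1.46 ± 0.198 and Nfkbie by 2.48 ± 0.240.

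Among the subunits, Rel, which encodes c-Rel, differed most. WT monocytes held 19.7, 11.4, 19.8 and 17.8 CPM of Rel, WT SPMs 29.6, 8.61, 9.01 and 9.13 CPM, and WT lung macrophages 141, 251, 119, 240 and 383 CPM. SPM replicate 1 was more than 3 times its fellows, and the lung libraries differed among themselves by a similar factor. The log2 difference from monocytes to lung macrophages was 3.72 ± 0.424 (SE) for Rel, 2.94 ± 0.257 for Relb and 2.68 ± 0.295 for Nfkb2, the subunits tied to the noncanonical arm. Rela, which encodes p65, differed by 1.15 ± 0.192 and Nfkb1, which encodes p105 and p50, by 0.82 ± 0.261 (adjusted p = 1.27e-05 and 7.74e-03, edgeR). The Nfkb1 groups overlapped, since WT lung replicate 3 held 72.3 CPM and WT monocytes 71.9 to 79.9 CPM.

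Between monocytes and SPMs the 10 genes split. Of them, 5 were called: Traf1 and Nfkbib (0.65 ± 0.202, SE) were higher in SPMs, and Nfkb1 (−0.84 ± 0.274), Rela (−0.78 ± 0.200) and Tnfaip3 were lower. The background was 21.8% of all genes called higher in SPMs and 20.1% called lower, 41.9% in all. Nfkbia (0.57 ± 0.244, adjusted p = 0.0619), Relb (0.44 ± 0.252), Nfkbie (0.40 ± 0.237), Nfkb2 (−0.42 ± 0.290) and Rel (−0.28 ± 0.397) did not pass. This contrast depended on scaling and on single libraries. RLE factors and DESeq2 each called 8 of the 10, and 8 were called without WT SPM replicate 1, where Nfkbia, Nfkb2 and Rel also passed. Nfkb1 was no longer called without WT SPM replicate 2 or 3 (adjusted p = 0.0596 and 0.0542, edgeR). With library totals alone the median of all genes moved to −0.96, and Nfkbia, Nfkbib, Nfkbie and Relb turned to lower in SPMs, whereas relative to that median the same 5 genes stayed above and the other 5 below under each of the 4 scalings. The SPM scaling factors were 0.490 to 0.734 and those of the other cell types 1.14 to 1.54.

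**Figure D2:**
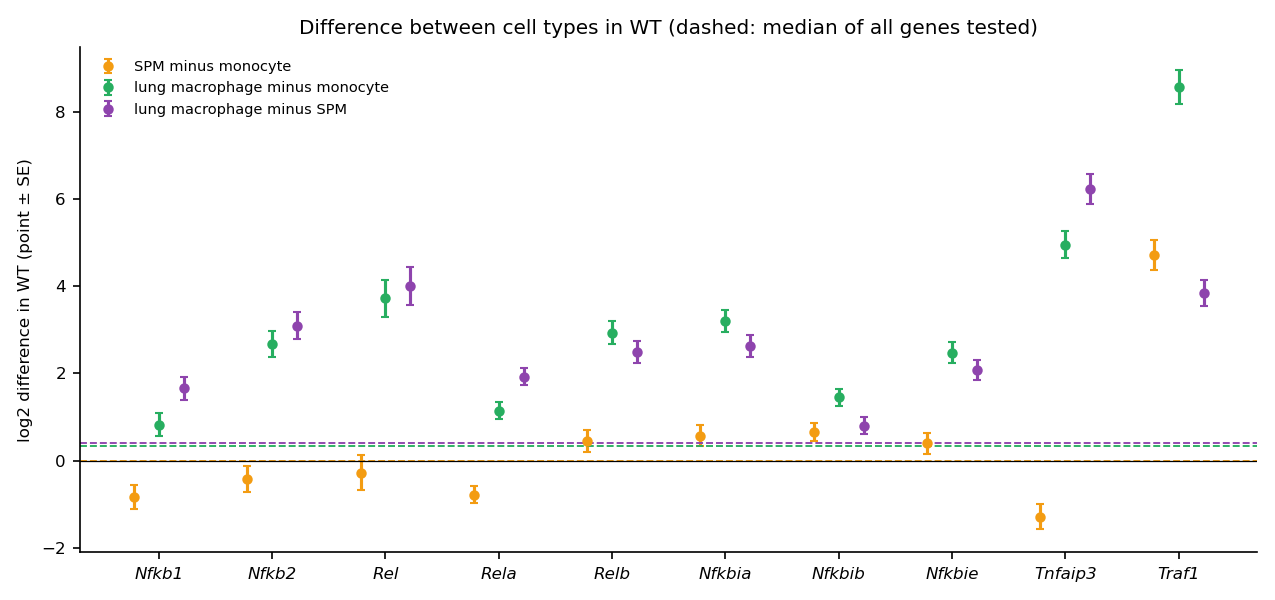
Log2 difference between cell types in WT for each gene (points, edgeR estimate; bars, SE), with the median of all 17792 genes as dashed lines. For 2 of the 3 contrasts, those with lung macrophages, each point lies above its dashed line, from 0.82 for Nfkb1 to 8.57 for Traf1 against monocytes, and this holds with TMM, RLE, DESeq2 and no scaling; 4 of the SPM minus monocyte points (Nfkbia, Nfkbib, Nfkbie and Relb) turn negative without scaling factors.

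Other transcripts differed between the cell types as well and are given beside the lung level. The 14 immediate early and stress genes, which tissue digestion is known to induce, summed to 22764 to 33396 CPM in WT lung macrophages, 488 to 743 in WT SPMs and 1086 to 3900 in WT monocytes on the shared scale. All 14 were called higher in lung macrophages than in either other cell type, with a median log2 difference of 4.09 above monocytes. The 6 epithelial genes summed to 334 to 13916 CPM in WT lung libraries and to 6.85 or less in the WT libraries of the other cell types. The 10 lung macrophage defining genes summed to 2143 to 10249 CPM in WT lung libraries and to 20888 to 30903 CPM in WT SPMs. In WT monocytes they summed to 282 to 413 CPM. The part of these transcripts in the levels of the 10 genes was not tested. In bulk samples, fewer cells of a type and less RNA per cell cannot be told apart.

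To compare genes with each other, levels were divided by the gene length of the SPM table (CPM per kb). In WT monocytes the medians ran from Nfkbia at 136 CPM per kb through Rela at 26.4 and Nfkbib at 24.1 to Tnfaip3 at 1.01 and Traf1 at 0.102. The neighbours Nfkb1 and Nfkb2, Nfkb2 and Nfkbie, and Rel and Relb overlapped there, and each other gene stood above the next in all 4 libraries. In WT SPMs Nfkbia was again first at 231 CPM per kb, ahead of Nfkbib at 43.0 and Rela at 16.9, while Nfkbie, Nfkb2, Nfkb1, Relb, Traf1 and Rel formed a run in which each overlapped the next. In WT lung macrophages Nfkbia reached 1255 CPM per kb and Nfkb1 was last at 11.7, and between them only Nfkbie stood above its next neighbour, Relb, in all 5 libraries. Traf1 moved from the last place in monocytes to the eighth in SPMs and the fifth in lung macrophages. The length of Nfkbie differs between the monocyte and SPM tables, so its place is less certain. The GENCODE annotation gives 4584 exon bases for Nfkb2 and 3072 for Rela, against 3289 and 2716 in the SPM table. The lung table gives no gene lengths, so the lung order and subunit shares rest on lengths from another table.

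The ratio of Nfkbia to Rela transcripts per kb sums this up within each library, where scaling cancels. It was 4.55, 4.93, 5.08 and 6.18 in WT monocytes, 7.02, 13.9, 24.1 and 12.5 in WT SPMs, and 25.6, 20.6, 28.8, 17.3 and 16.5 in WT lung macrophages. Monocytes were lowest without overlap, and the SPM and lung ranges met. The ratio of Tnfaip3 to Rela was 0.343 to 0.816 in WT lung macrophages and did not exceed 0.042 in WT monocytes.

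The make-up of the subunit pool also differed. Rela gave 61.9% ± 2.11 (SD, n = 4) of the summed CPM per kb of the 5 subunits in WT monocytes, 56.2% ± 7.73 (n = 4) in WT SPMs and 39.2% ± 4.39 (n = 5) in WT lung macrophages. Rel gave 5.26% ± 1.02, 6.36% ± 2.96 and 19.0% ± 5.40 in the same order, and Nfkb2 13.8% ± 1.499, 15.2% ± 3.43 and 24.9% ± 1.964. The Rela and Rel shares of the WT lung libraries did not overlap those of WT monocytes or SPMs, with 34.1% to 44.5% for Rela against 46.3% or more, and 12.7% to 27.03% for Rel against 10.5% or less. Nfkb1 gave 14.5% ± 1.05, 12.3% ± 3.46 and 7.09% ± 1.17, where the SPM range of 9.24% to 16.3% took in the monocyte range. These shares compare transcripts, since proteins were not measured.

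**Figure D3:**
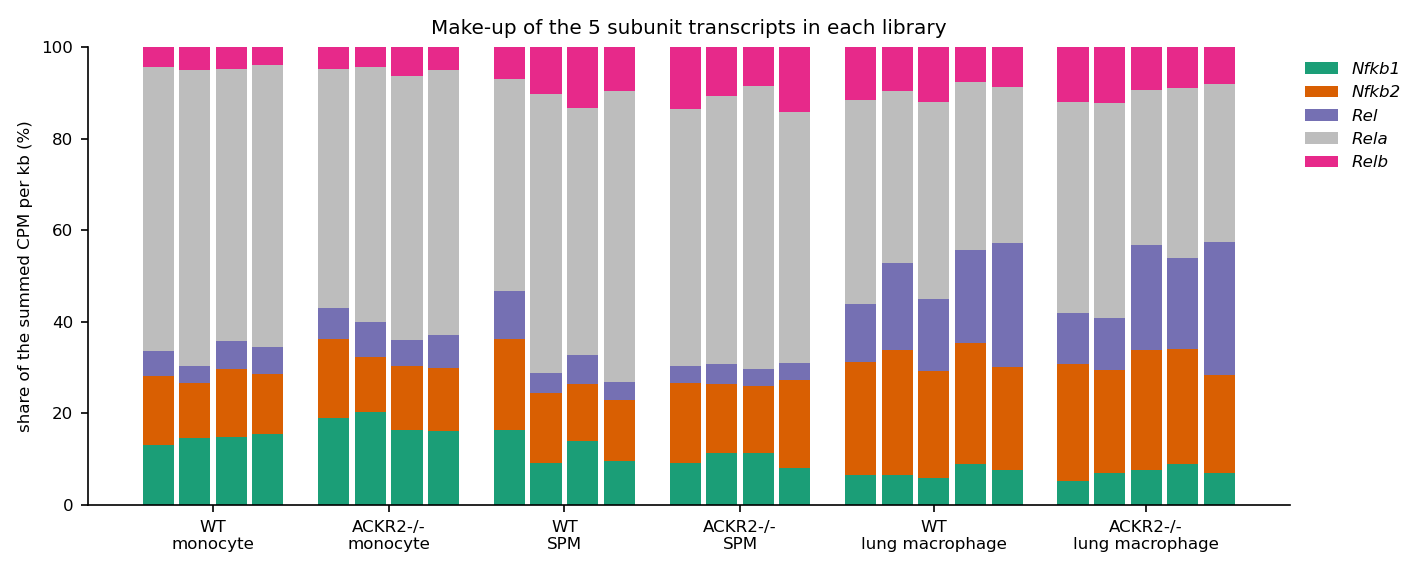
Share of each of the 5 subunit genes in their summed CPM per kb (%), 1 bar per library in replicate order, by group. Rela (grey) takes 59.5% to 64.6% of each WT monocyte bar and 34.1% to 44.5% of each WT lung bar, where Rel and Nfkb2 are wider; WT SPM replicate 1, the leftmost SPM bar, has the widest Rel segment of the SPMs, 10.5%.

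The 10 genes also differed in how steady they were among the 10 lung libraries. The ratio of the highest to the lowest library was 3.82 for Rel, 2.885 for Traf1 and 2.46 for Nfkb1, and 1.23 for Nfkbib, 1.33 for Relb and 1.46 for Rela. The same 4 libraries, WT replicates 1 and 3 and ACKR2-/- replicates 1 and 2, were lowest for Rel, Traf1 and Nfkb1. Rel was at 125 to 171 CPM in them and at 326 CPM or more in the rest, a gap that both genotypes shared. Those 4 libraries also had the lowest sums of the 11 IKK complex genes, 449 to 761 CPM against 975 to 1260 in the other 6. Their epithelial sums ran from 9200 to 18893 CPM, and those of the other 6 from 252 to 11174, so the ranges met. The part of epithelial RNA in this split was not tested.

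Next, ACKR2-/- monocytes were compared with WT monocytes, with values scaled within the monocyte table. Of the 10 genes, 1 was called, Traf1, which was higher in ACKR2-/-. The background was 1.27% of 13246 genes called, 0.913% higher in ACKR2-/- and 0.355% lower. Traf1 was at 1.43, 0.560, 1.28 and 1.01 CPM in WT libraries 1 to 4 and at 4.14, 2.56, 2.74 and 2.97 CPM in ACKR2-/-. All 4 ACKR2-/- libraries lay above all 4 WT libraries, on 45 to 77 reads against 9 to 23, a gap seen in 4.94% of all genes in this direction. The log2 fold change was 1.53 ± 0.330 (SE), a fold of 2.89, with an adjusted p of 0.0489 in edgeR and an exact two-sided permutation p of 0.0286, the smallest that 4 against 4 allows. The call stood close to the threshold: the adjusted p ran from 0.0432 to 0.135 with each library left out, and the call held only without ACKR2-/- replicate 3.

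T cell markers were also higher in the ACKR2-/- monocyte libraries. Traf1 is also transcribed in lymphocytes. All 10 T cell genes were called higher in ACKR2-/- monocytes, and their summed level was 4.95, 5.53, 4.40 and 5.37 CPM in WT and 102, 69.8, 100 and 125 CPM in ACKR2-/-. Cd3d, a part of the T cell receptor complex, was at 0.521 to 0.946 CPM in WT and 13.8 to 17.7 CPM in ACKR2-/- (log2 fold change 4.38 ± 0.224, SE; adjusted p = 3.57e-06, edgeR). Klre1 of NK cells and Siglech and Ccr7 of dendritic cells were called higher too, of the B cell genes 0 of 3 tested were called in edgeR (0 at an unadjusted p under 0.05, 1 called by DESeq2). Among the ACKR2-/- libraries, Traf1 was highest in replicate 1 and the T cell sum in replicate 4. Among the WT libraries, Traf1 was lowest where the T cell sum was highest. The 8 neutrophil genes were all below 0 in ACKR2-/- monocytes, with a median log2 fold change of −0.55. Of them 1 had an unadjusted p under 0.05 and 0 were called in edgeR or DESeq2. On the scale shared by all 26 libraries they summed to 40161 to 90972 CPM in WT and 15810 to 60149 CPM in ACKR2-/-. The 8 monocyte-defining genes summed there to 44483 to 53681 and 21598 to 56831 CPM. The part of these cells in the levels of the 10 genes was not tested.

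**Figure D4:**
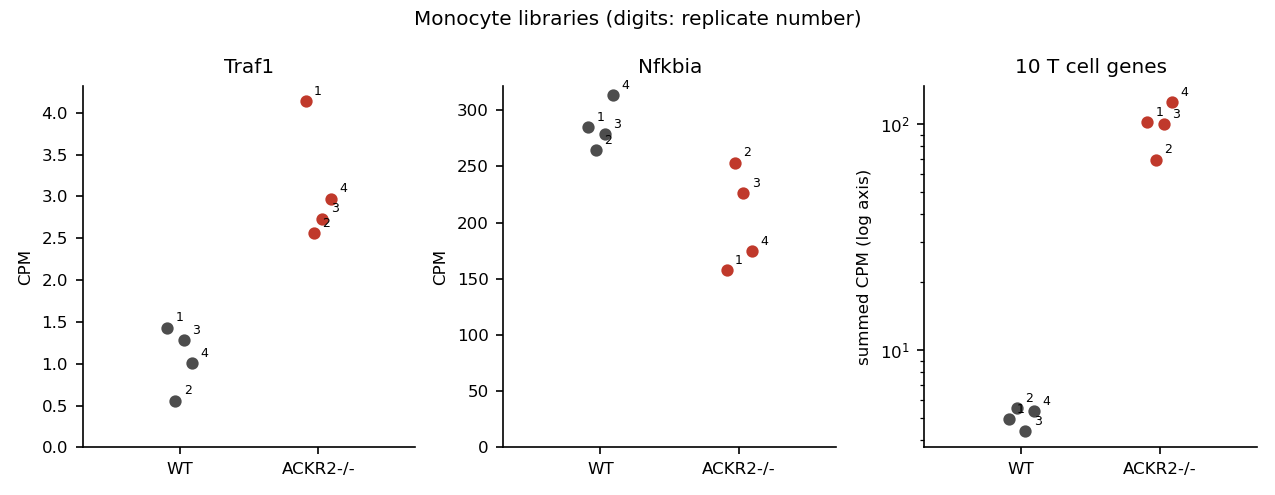
CPM of Traf1 and Nfkbia and the summed CPM of 10 T cell genes (log axis) in the 8 monocyte libraries, 1 point per library with its replicate number. Traf1 (0.560 to 1.43 against 2.56 to 4.14) and the T cell sum (4.40 to 5.53 against 69.8 to 125) are higher in each ACKR2-/- library, and Nfkbia (264 to 314 against 157 to 253) is lower in each.

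Nfkbia was the gene that came next, without passing the test. It was at 285, 264, 279 and 314 CPM in WT and at 157, 253, 226 and 174 CPM in ACKR2-/-. The 4 ACKR2-/- libraries all lay below the WT libraries, replicates 1 and 4 by the most. The log2 fold change was −0.49 ± 0.157 (SE), with an adjusted p of 0.150 in edgeR and an exact two-sided permutation p of 0.0286. Such a gap was seen in 5.25% of all genes in the lower direction and in 10.2% in either. The log2 fold change ran from −0.61 to −0.39 with each library left out, and the smallest adjusted p under any alternative was 0.0742.

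Rela was at 106, 90.5, 92.5 and 85.6 CPM in WT and at 60.1, 56.2, 90.9 and 75.9 CPM in ACKR2-/-. Its groups overlapped through ACKR2-/- replicate 3, and the log2 fold change of −0.40 ± 0.155 (SE) had an adjusted p of 0.219 in edgeR. The share of Rela in the subunit pool was 55.8% ± 2.64 (SD, n = 4) in ACKR2-/- monocytes against 61.9% ± 2.11 (n = 4) in WT, and the ranges 52.1% to 57.9% and 59.5% to 64.6% did not meet. The share of Nfkb1 was 17.9% ± 2.04 (16.1% to 20.4%) in ACKR2-/- and 14.5% ± 1.05 (13.1% to 15.6%) in WT, again without overlap, and since the shares of a library sum to the whole these differences are not independent. By level, 10.2% of all genes did not overlap in either direction, and no such background was counted for shares. Replicates 1 and 2, the lowest for Rela, also had the lowest sums of the 8 monocyte-defining genes, 28777 and 44435 CPM against 56448 or more in the 6 other libraries, a link that was not tested.

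The other 7 genes did not pass in monocytes. Their log2 fold changes ran from −0.23 ± 0.183 (SE) for Tnfaip3 to 0.08 ± 0.176 for Rel, with Nfkb1 at 0.03 ± 0.112. Nfkb1 was at 91.3 to 102 CPM in WT and 91.1 to 115 CPM in ACKR2-/-, so the 95% interval of its log2 fold change, −0.19 to 0.25, leaves room for a small change in either direction. The intervals were wider for Relb (−0.51 to 0.43), Nfkb2 (−0.59 to 0.17) and Tnfaip3 (−0.59 to 0.13). Over the 10 genes the median log2 fold change was −0.09, beside 0.00 over all genes, and 3 of the 10 were above 0 where 50.4% of all genes were. Of the 10, 3 had an unadjusted p under 0.05 where 17.0% of all genes did.

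**Figure D5:**
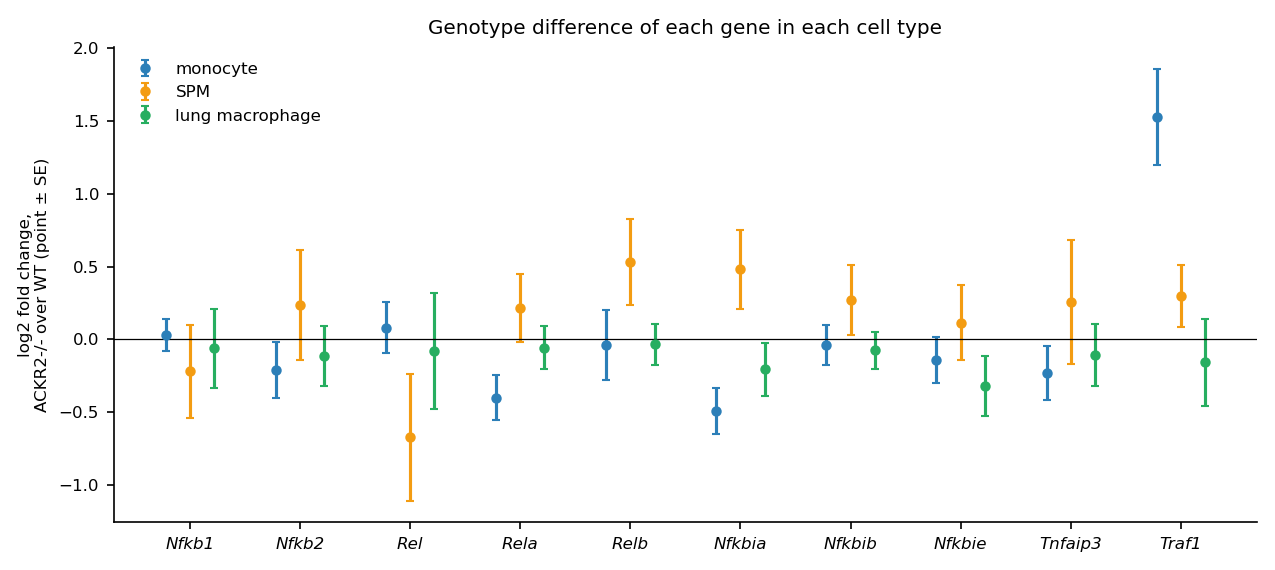
Log2 fold change of ACKR2-/- over WT for each gene (points, edgeR estimate; bars, SE) in monocytes, SPMs and lung macrophages. Traf1 in monocytes, at 1.53, is the point farthest from 0; all 10 lung points lie between −0.32 and −0.04, and the SPM points have the longest bars for Rel and Tnfaip3.

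In SPMs none of the 10 genes was called by edgeR, none had an unadjusted p under 0.05, and DESeq2 called none. Few genes were called at all, 0.0462% of 12997 (0.0308% higher and 0.0154% lower in ACKR2-/-), and 5.46% had an unadjusted p under 0.05. The groups overlapped for each of the 10, whereas 3.40% of all genes did not overlap (1.80% higher, 1.60% lower). The log2 fold changes were above 0 for 8 of the 10 genes, as for 44.3% of all genes, with a median of 0.25 beside −0.05 over all genes. WT replicate 1 stood apart, and 5 of the 10 genes had an extreme value in it.

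Nfkbia was at 123, 202, 218 and 206 CPM in WT SPMs and at 335, 228, 163 and 320 CPM in ACKR2-/-. Replicates 1 and 4 of ACKR2-/- were highest and the groups overlapped. The log2 fold change was 0.48 ± 0.273 (SE), with an adjusted p of 0.788 in edgeR. Relb showed the same 2 libraries high, at 5.37 to 6.33 CPM over the WT libraries and 10.96, 6.20, 5.02 and 11.96 CPM in ACKR2-/-, and had the highest log2 fold change of the set in SPMs, 0.53 ± 0.297 (adjusted p = 0.788, edgeR). Nfkb2 and Tnfaip3 were also highest in replicates 1 and 4 within ACKR2-/-. Those 2 libraries held the largest sums of the 6 large peritoneal macrophage genes, 1261 and 1500 CPM against 313 to 947 elsewhere, and the largest NK cell sums, 34.6 and 70.7 CPM against 13.2 or less. The 8 SPM-defining genes were all below 0 in ACKR2-/-, with a median log2 fold change of −0.46, 3 at an unadjusted p under 0.05 and 0 called in edgeR or DESeq2. Their sum was 96123 to 117725 CPM in WT and 47707 to 89826 CPM in ACKR2-/-. Their part was not tested.

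Rel and Nfkb1 in SPMs were decided by WT replicate 1. Rel was at 18.4, 4.80, 5.10 and 4.92 CPM in WT and at 5.595, 4.99, 4.20 and 6.11 CPM in ACKR2-/-. Its log2 fold change of −0.67 ± 0.437 (SE) became 0.082 without that library. Nfkb1 was at 46.3, 16.5, 17.7 and 18.6 CPM in WT and at 22.9, 20.2, 20.9 and 21.2 CPM in ACKR2-/-, and its log2 fold change went from −0.22 to 0.27 (adjusted p = 0.887 and 0.607, edgeR). Without replicate 1 all 4 ACKR2-/- libraries lay above the 3 WT libraries for Nfkb1. How many of all genes do so once that library is left out was not counted, so no genotype difference is read from it. Traf1, in contrast, was at 10.3 to 15.8 CPM in WT and 13.5 to 17.4 CPM in ACKR2-/-, a log2 fold change of 0.30 ± 0.214 with overlapping groups.

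In lung macrophages no gene of the 10 was called by edgeR, none had an unadjusted p under 0.05, and DESeq2 called none. No gene of the 16824 tested was called by edgeR either, with 499 at an unadjusted p under 0.05 and 18 called by DESeq2, so the background was 0%. All 10 log2 fold changes were below 0, between −0.32 and −0.04, with a median of −0.09 beside −0.04 over all genes, of which 44.8% were above 0. The groups overlapped for each of the 10, and 0.446% of all genes did not overlap (0.220% higher and 0.226% lower in ACKR2-/-).

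The values show the overlap. Nfkbia was at 3291, 2843, 2712, 2220 and 2145 CPM in WT and at 2678, 2172, 2012, 1968 and 2618 CPM in ACKR2-/- (log2 fold change −0.21 ± 0.181, SE; adjusted p = 1.00, edgeR). Nfkbie, the gene with the lowest log2 fold change, was at 90.5, 131, 108, 90.1 and 132 CPM in WT and at 99.7, 75.5, 92.8, 115 and 58.7 CPM in ACKR2-/- (−0.32 ± 0.204). Traf1 was at 298, 579, 201, 468 and 520 CPM in WT and at 300, 238, 458, 478 and 379 CPM in ACKR2-/- (−0.16 ± 0.298). With WT replicate 3 and the library labelled WT replicate 5 both left out, Rel and Nfkbib turned to 0.061 and 0.024. The 95% interval of the Rel log2 fold change, −0.87 to 0.71, was the widest of the set, beside −0.32 to 0.17 for Nfkbib.

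Marker lists differed between the same lung groups. All 10 lung macrophage defining genes were below 0 in ACKR2-/-, with a median log2 fold change of −1.01, 5 at an unadjusted p under 0.05 and 0 called in edgeR or DESeq2. They summed to 2930 to 13751 CPM in WT, highest in replicate 3, and to 1555 to 3429 CPM in ACKR2-/-. All 6 NK cell genes were above 0, with a median of 2.08, 6 at an unadjusted p under 0.05, 0 called in edgeR and 3 in DESeq2, and they summed to 118 to 326 CPM in WT and 297 to 1847 CPM in ACKR2-/-. The 10 T cell genes were above 0 as well, with a median of 0.70, 1 at an unadjusted p under 0.05 and 0 called by either tool. The part of these cells in the levels of the 10 genes was not tested.

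Whether the genotype difference itself varied between cell types was tested in the fit of all 26 libraries. None of the 10 genes was called in edgeR at an adjusted p under 0.05 in any of the 3 pairs, where the background was 0.253% (monocytes and SPMs), 0.152% (monocytes and lung) and 0.0393% (SPMs and lung) of 17792 genes. Unadjusted p-values under 0.05 were seen for 3, 1 and 1 of the 10 and for 1328, 1080 and 1095 of the 17792 genes, and DESeq2 called 0, 1 and 0. For Nfkbia the log2 fold change was 1.04 ± 0.346 (SE) higher in SPMs than in monocytes (adjusted p = 0.374, edgeR). For Traf1 it was 1.66 ± 0.408 lower in lung macrophages than in monocytes (adjusted p = 0.110 in edgeR and 0.0170 in DESeq2), and 1.14 ± 0.428 lower in SPMs than in monocytes (adjusted p = 0.512, edgeR). The edgeR call for Traf1 between monocytes and lung macrophages was gained without WT lung replicate 3 (adjusted p = 0.0269). The 3 comparisons share libraries pairwise.

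The rest of the pathway was read from lists by role. In monocytes the 11 genes of the IKK complex and its kinases, which phosphorylate IkB proteins, had 0 called in edgeR and DESeq2 and 0 at an unadjusted p under 0.05, with a median log2 fold change of 0.04. Of 21 receptors and adaptors tested, 0 were called by either tool and 17 were below 0, with 6 at an unadjusted p under 0.05, where 50.4% of all genes were above 0 and 17.0% had such a p. Tirap, the adaptor of Toll-like receptors, was at −0.39 ± 0.120 (SE; adjusted p = 0.141, edgeR), and Tnfrsf1a, the main TNF receptor, at −0.48 ± 0.165. Of the ligands, 1 of 6 tested was called, Ltb, a lymphotoxin of lymphocytes, at 3.06 to 4.64 CPM in WT and 7.998 to 12.7 CPM in ACKR2-/-. The other 5 ligands were below 0, the median of the 6 was −0.49, and 4 of the 6 had an unadjusted p under 0.05. Of 29 NF-kB target genes tested 2 were called, both higher, Ccl5 and Ccr7, 24 of the 29 were below 0 and 9 had an unadjusted p under 0.05. Ccl5 and Ccr7 are a chemokine and a chemokine receptor that lymphocytes transcribe, and Ccr7 is also among the dendritic cell genes. Both were higher in ACKR2-/- monocytes, as were the T cell genes given above. Whether lymphocytes or dendritic cells gave these reads was not tested.

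The same lists held no called gene in SPMs, in edgeR or DESeq2, outside the immediate early list, and the IKK, receptor and ligand lists had 1 gene each at an unadjusted p under 0.05. NF-kB target genes were above 0 for 25 of 29 tested in SPMs, with a median of 0.45 beside −0.05 over all genes and 8 at an unadjusted p under 0.05, where 44.3% of all genes were above 0 and 5.46% had such a p. Cxcl10, an interferon-inducible chemokine, was at 0.479 to 2.69 CPM in WT and 1.61 to 29.2 CPM in ACKR2-/-. The called gene was Btg2, an antiproliferative early gene, at 21.2 to 47.6 CPM in WT and 101 to 126 CPM in ACKR2-/- (log2 fold change 1.94 ± 0.267, SE; adjusted p = 0.0433, edgeR). In lung macrophages 25 of 32 target genes and 14 of 14 immediate early genes were below 0, with 4 and 5 at an unadjusted p under 0.05 and 0 called in edgeR, and DESeq2 called 1 target gene and 0 early genes. Of all lung genes, 44.8% were above 0 and 2.97% had an unadjusted p under 0.05. The other nuclear IkB genes and the ubiquitin editing genes held 0 called genes in each cell type by edgeR and DESeq2, with 1 of 3 (Nfkbid in lung macrophages) and 2 of 12 (monocytes) at an unadjusted p under 0.05.

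From monocytes to lung macrophages in WT, the lists did not all move with the 10 genes. Of 32 target genes, 28 were called higher in lung macrophages than in monocytes and 0 lower. The 3 other nuclear IkB genes, which are also among these 32, were all called higher. Nfkbiz was at a log2 difference of 4.95 ± 0.511 (SE) and Nfkbid at 3.20 ± 0.317. The background was 39.5% of all genes called higher and 24.4% lower. In the IKK list 5 of 11 were higher, near that share, and 1, Ikbke, was lower by 2.15 ± 0.358, and its median of 0.42 lay near the 0.34 of all genes. The highest in that list were Map3k14, the kinase of the noncanonical arm, at 3.94 ± 0.476, and Map3k8 at 3.03 ± 0.271. Of the 12 ubiquitin editing genes 4 were higher, also near the background, with a median of 0.37. In the same contrast 14 of 23 receptors and adaptors were higher and 2 lower. Of 10 ligands, 8 were higher and 1 lower. From SPMs to lung macrophages, 8 of 11 IKK genes (1 lower) and 8 of 12 ubiquitin editing genes (0 lower) were higher. So were 14 of 23 receptors and adaptors (4 lower) and 4 of 10 ligands (1 lower). The background there was 39.1% higher and 23.2% lower.

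The genes whose pattern was most like that of a member were named over the 26 libraries by the root mean square difference of centred log2(CPM + 0.5). For Nfkb1 these were Grk2 (0.19), Gmip (0.21) and Kansl1 (0.22), where the median of all genes was 0.98. For Nfkbia they were Sqstm1 (0.32), Tgif1 (0.36) and Coq10b (0.38), with a median of 1.54. For Traf1 they were Itgax (0.56), Map4k2 (0.66) and Zfp36l1 (0.69), with a median of 3.001. Differences between and within cell types were not separated in this measure.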

How the data were processed

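RNA of FACS sorted cells was amplified by the SMARTer method and sequenced as paired reads. For each cell type the authors deposited 1 table of raw, unnormalized read counts. The submitters' processing notes name HISAT2 2.0.5, featureCounts 1.5.0-p3, DESeq2 and mm10. The lung table has 5 summary lines (56.3% of its counts), which were left out, and no source used here says which counter made it. Counting is not stated to use strand: 11.6% and 6.52% of the Nfkb2 exon bases overlap genes on the opposite strand, as do 14.5% and 1.94% of those of Nfkbib.

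Counts were analysed in R 4.3.3 with edgeR 4.0.16 (filterByExpr with a minimum count of 10 and total of 15, TMM factors, quasi-likelihood test) within each cell type, and in a fit of all 26 libraries over 50104 shared genes, of which 17792 were tested. Benjamini-Hochberg adjustment covered all tested genes. Differences of genotype effects were called on the adjusted p alone. Levels per kb used the gene lengths of the SPM table. Permutation tests were exact and two-sided. None of the 44 pairs of replicates held identical counts. The fits were tested on simulated data. At a log2 change of 1, edgeR recovered 70.8% of changed genes in monocytes, 23.5% in SPMs and 10.7% in lung macrophages. At a log2 change of 2 it recovered 94.2%, 90.6% and 71.6%, and 34.0% for the difference of effects between monocytes and SPMs. False calls made up 1.89% to 6.21% of the edgeR calls and 7.73% to 26.2% of the DESeq2 calls. As alternatives, DESeq2 1.42.0, RLE factors, other filters (none, or 1 CPM), calls without the fold threshold, the robust fit, fits of only a pair of cell types, a replicate block and leaving out libraries were run; fits with no scaling factors were added after seeing the data.

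The members and lists were chosen with earlier results of these data known. Named genes are the 10 members, called genes of each list (at most 6 per direction by p), otherwise at most 2 with the smallest p, Ackr2, defining markers, and the 3 genes most like Nfkb1, Nfkbia and Traf1. Map3k14, Map3k8, Ikbke, Nfkbiz and Nfkbid across cell types were named after their values were seen.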

Additional observations from a re-analysis of the deposited data

Results flagged for a closer look

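Of 60 sets of values (10 genes in 6 groups), 6 held a sample farther from its fellows than Dixon's 95% critical value allows, and chance flags about 1 in 20. Of these, 5 came from WT SPM replicate 1. Nfkb1 was at 46.3 CPM there against 16.5 to 18.6 in the other libraries, Rel at 18.4 against 4.80 to 5.10, and Tnfaip3 at 3.02 against 0.981 to 1.32. Nfkbia was at 123 CPM against 202 to 218 and Nfkbib at 27.03 against 50.8 to 54.0, both lower. In that library the B cell sum (171 CPM against 385 to 551) and the dendritic cell sum (154 against 789 to 1231) were also lowest among WT SPMs. That library was the highest of the WT SPMs for Ccr2 (1815 CPM, WT median 731), Mrc1 (182, 62.8) and Itgam (241, 104). It was also highest for Csf1r (300, 152), Irf4 (30.6, 14.1) and Retnla (85735, 67951), but not for H2-Ab1 or Cd226. Rela was low in WT lung replicate 3, at 159 CPM against 216 to 233, where H2-Ab1 and the B cell and dendritic cell sums were highest. The cause was not tested.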

How the results depend on the processing

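With each library left out in turn, genes called ranged from 76 to 413 in monocytes (0 to 1 of the 10 genes) and from 3 to 8 in SPMs. For differences of the genotype effect they ranged from 29 to 58 (monocytes and SPMs), 13 to 53 (monocytes and lung, 0 to 1 of the 10) and 4 to 7 (SPMs and lung), and 4 to 8 of the 10 genes were called between WT monocytes and SPMs. The call of Traf1 in monocytes was lost in 7 of 8 such fits. DESeq2 called 540 genes in monocytes, 30 in SPMs and 18 in lung macrophages, and 135, 113 (1 of the 10, Traf1) and 23 for the differences of effects; without the filter 346, 52 and, for monocytes and lung, 42 were called. Fitting only the pair gave 82, 6 and 4, and no scaling factors 3 for SPMs and lung. Between WT monocytes and SPMs, 8 of the 10 were called with RLE factors, 8 with DESeq2 and 10 with no scaling factors, which turned Nfkbia to −0.64, Nfkbib to −0.57, Nfkbie to −0.74 and Relb to −0.71.

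Log2 fold changes that changed sign with a library left out, none of them called, had these ranges. In monocytes they ran for Nfkb1 from −0.041 to 0.078, for Nfkbib from −0.18 to 0.045, for Rel from −0.069 to 0.16 and for Relb from −0.30 to 0.13. In SPMs they ran for Nfkb1 from −0.38 to 0.27, for Nfkbie from −0.056 to 0.22, for Rel from −0.88 to 0.082 and for Tnfaip3 from −0.057 to 0.74. In lung macrophages they ran for Relb from −0.081 to 0.020, for Tnfaip3 from −0.22 to 0.018, for Rel from −0.31 to 0.21 and for Nfkb1 from −0.22 to 0.069. With WT lung replicate 3 and the library labelled WT replicate 5 both left out, Rel was at 0.061 and Nfkbib at 0.024.

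Replicate numbers did not pair the samples throughout. For the same number, the correlation of deviations ran from −0.13 to 0.35 in monocytes, −0.11 to 0.0032 in SPMs and −0.10 to 0.68 in lung. The highest was that of lung replicate 1, and 1 of 4, 0 of 4 and 1 of 5 numbers matched best. With a replicate block, 186, 6 and 0 genes were called, with 1, 0 and 0 of the 10. The cause of these shifts was not tested. Traf1 in monocytes and Tnfaip3 in SPMs rest on 9 to 116 reads per library, which limits their precision.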
